A study of Homo sapiens with 6 samples.

Results

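The genes described here are 10 carriers that move amino acids across membranes, chosen by name: SLC7A5, SLC3A2, SLC1A5, SLC7A1, SLC7A2, SLC7A8, SLC38A1, SLC38A2, SLC1A4 and SLC36A1. They are 10 of the 58735 genes in the table of counts, and each of the 10 passed the filter on low counts, with 451 to 24451 reads per library. RNA was sequenced from LoVo, an established human colorectal cancer (CRC) cell line, after transfection with a negative control siRNA (si-NC, 3 libraries) or with one directed at SRSF11 (si-SRSF11, 3 libraries). SRSF11 is a serine/arginine-rich splicing factor, and the study asked what its loss changes in CRC cells. The labels give no time after transfection and do not say which SRSF11 siRNA was used, and they do not say whether the 3 libraries of a condition came from separate transfections, so the p-values measure the spread between these libraries. In si-SRSF11, SLC7A2, SLC7A8, SLC38A1 and SLC38A2 rose and SLC7A5 and SLC3A2 fell, while SLC1A5, SLC7A1, SLC1A4 and SLC36A1 did not pass the test.

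Amino acids cannot cross the lipid membrane unaided, so each cell uses carriers with overlapping substrates. Exchangers such as SLC7A5 and SLC1A5 bring in one amino acid in return for another, whereas carriers such as SLC38A1 and SLC38A2 use the sodium gradient to accumulate small neutral amino acids. In tumour cells these proteins supply leucine and glutamine, the former being a signal to mTORC1, the kinase complex that promotes protein synthesis. Transcription of several of these genes is known to depend on ATF4, the factor induced by amino acid shortage, and on MYC.

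The targeted gene, SRSF11, was counted 1271, 1281 and 1363 times in the si-NC libraries and 789, 789 and 807 times after si-SRSF11, so 57.2% of the control level was left (adjusted p = 6.1e-10 by edgeR's quasi-likelihood test, log2 fold change -0.81 ± 0.054, SE). A splicing plot of the study shows these libraries under swapped conditions. The deposited labels were followed here, and each library labelled si-SRSF11 had fewer SRSF11 counts than each labelled si-NC. Library totals were 14369525 to 15514404 counts in si-NC and 15688702 to 16685719 in si-SRSF11, and mitochondrial genes took 7.0% to 7.25% of the counts in si-NC against 8.29% to 8.51% in si-SRSF11. The part of that shift in the results was not tested. Of 10 colorectal epithelial markers, KRT8 had 45266 to 56042 counts per library, whereas KRT20 (6 to 20 counts) and CEACAM5 (10 to 20 counts) were nearly absent, and 1 of the 10, CDX2, was called, at a log2 fold change of 0.40 (adjusted p = 0.00038, edgeR), which is 10% of the list beside 24.6% of all tested genes. The summed level of these 10 markers was 5570 to 5896 CPM (counts scaled to a common library size by edgeR's TMM factors) in si-NC and 5663 to 6014 CPM in si-SRSF11. Of 10 markers of leukocytes, fibroblasts, endothelium and hepatocytes, 7 were too low to test, and PTPRC and DCN had 0 counts in each library. The 3 tested did not pass (adjusted p = 0.15 to 0.52, edgeR). One of them, the fibroblast marker COL1A1, was present at 179 to 206 counts per library, a mean of 12.7 CPM in si-NC and 11.7 CPM in si-SRSF11. The other fibroblast markers listed, DCN and COL1A2, had 0 counts and 0 to 2 counts per library. The summed level of these 10 was 13.9 to 15.6 CPM in si-NC and 11.8 to 15.3 CPM in si-SRSF11, most of it COL1A1.

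The carriers were compared with one another by CPM divided by the exon length of the gene in kilobases. SLC7A5 had the highest level, at 325 ± 9.22 (SD, n = 3) CPM per kilobase in si-NC and 285 ± 5.57 in si-SRSF11, and ranked 101 among the 15801 genes tested when the 6 libraries were averaged. SLC1A5 followed at 182 ± 6.29 in si-NC and 196 ± 6.93 in si-SRSF11, and SLC3A2 at 149 ± 5.31 and 130 ± 6.43 CPM per kilobase. The order went on with SLC7A1 (mean of the 6 libraries 94.8), SLC38A2 (71.2), SLC38A1 (36.2), SLC1A4 (12.6), SLC7A8 (11.7), SLC7A2 (5.61) and SLC36A1 (4.30 CPM per kilobase). Over the 6 libraries the ranges of neighbours in this order were separate, except for SLC1A4 with SLC7A8 and for SLC7A2 with SLC36A1. SLC1A4 stood above SLC7A8 in si-NC (12.8 against 10.5) and below it in si-SRSF11 (12.3 against 12.9). The length is that of all annotated exons together, and the transcripts in use were not measured. The 10 genes took 0.465% to 0.476% of all counts in si-NC and 0.435% to 0.454% in si-SRSF11, so their sum was lower in each si-SRSF11 library.

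At an adjusted p under 0.05, 6 of the 10 carriers were called, beside 24.6% of all genes tested. Of these, 4 were higher in si-SRSF11, beside 13.2% of all genes, and 2 were lower, beside 11.4%. The sizes were small: 0 of the 10 passed an absolute log2 fold change of 1, which 1.09% of all tested genes passed together with the adjusted p. The 3 libraries of one condition lay wholly above or below those of the other for 8 of the 10 carriers, beside 38.8% of all genes. The median log2 fold change of the 10 was 0.03, against 0.0015 for all tested genes. The 10 carriers and the gene lists below were chosen with earlier results of these data known. Their shares beside those of all genes are therefore description only and no test of the lists. In RNA of whole cultures, fewer cells that express a gene and less of its RNA per cell cannot be told apart.

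**Figure D1:**
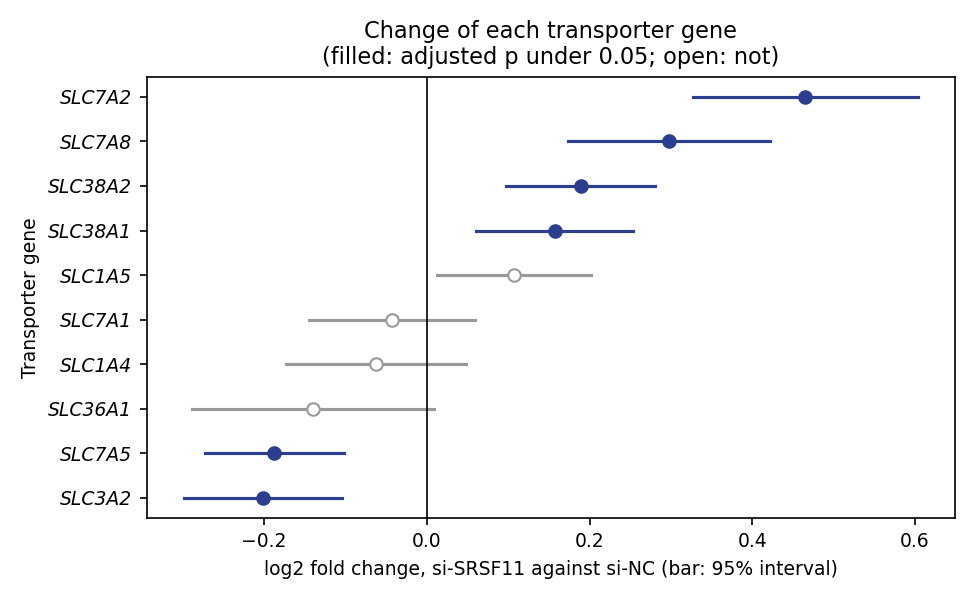
Log2 fold change of each carrier in si-SRSF11 against si-NC, with its 95% interval from edgeR and filled symbols where the adjusted p was under 0.05. SLC7A2 is highest at 0.47 and SLC3A2 lowest at -0.20, and the intervals of SLC7A1, SLC1A4 and SLC36A1 include 0.

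SLC7A5 (LAT1, chromosome 16, 87830023 to 87869488, minus strand, GRCh38) is the exchanger for leucine and other large neutral amino acids. It is joined by a disulfide bond to SLC3A2 (4F2hc or CD98, chromosome 11, 62856102 to 62888875, plus strand), the glycoprotein that carries it to the surface. SLC7A5 stood at 1564, 1491 and 1570 CPM in si-NC replicates 1, 2 and 3 and at 1381, 1352 and 1328 CPM in si-SRSF11. Each si-SRSF11 library was below each si-NC library, and the mean fell by 12.2% (log2 fold change -0.19, standard error (SE) 0.041, adjusted p = 0.0017, edgeR). SLC3A2 stood at 796, 742 and 778 CPM in si-NC and at 641, 665 and 707 CPM in si-SRSF11. Here too the groups did not overlap, with a log2 fold change of -0.20 (SE 0.047, adjusted p = 0.0029, edgeR). The annotation places an antisense gene, AC126696.2, over 5.71% of the exon bases of SLC7A5, and AC126696.2 had 5 to 11 counts per library. The strand setting of the counting is not given, so these counts cannot show how reads in the shared bases were assigned. The pseudogene SLC7A5P1 had 33 to 68 counts per library, and SLC3A2 shares no exon base with another gene.

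The sequence around a start of transcription is shown for these genes because light and heavy chain fell together. The windows are RefSeq promoters on GRCh38.p14, from 250 bases before to 50 bases after a start, written 5′ to 3′ on the strand of the gene. The window of SLC7A5 is chr16:87869458-87869757 (minus strand), and that of SLC3A2 is chr11:62881449-62881748 (plus strand), which belongs to a start inside the annotated gene and is shown, of 3 windows for SLC3A2, because the other two hold neither motif. Capitals mark CACGTG, the E-box that MYC and related factors read, or TGATGNAA on either strand, the core of the element through which ATF4 acts.
SLC7A5: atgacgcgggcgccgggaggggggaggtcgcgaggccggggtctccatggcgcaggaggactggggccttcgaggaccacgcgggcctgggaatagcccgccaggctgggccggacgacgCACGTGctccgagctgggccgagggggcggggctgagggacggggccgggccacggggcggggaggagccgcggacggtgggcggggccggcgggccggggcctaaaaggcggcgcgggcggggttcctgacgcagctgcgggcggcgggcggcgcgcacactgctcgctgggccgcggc
SLC3A2: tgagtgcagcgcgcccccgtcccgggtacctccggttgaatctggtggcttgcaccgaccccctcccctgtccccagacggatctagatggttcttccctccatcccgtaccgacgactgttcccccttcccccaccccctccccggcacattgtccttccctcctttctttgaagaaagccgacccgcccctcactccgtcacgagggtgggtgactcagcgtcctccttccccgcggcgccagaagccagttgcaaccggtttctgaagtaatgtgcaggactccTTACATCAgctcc
In SLC7A5 the E-box begins at position -130 from the start, and in SLC3A2 the ATF4 core, read on the opposite strand as TTACATCA, begins at position 37. The window of SLC7A5 holds no TGATGNAA and that of SLC3A2 no CACGTG, so the windows shown share neither motif. RefSeq windows were given for 9 of the 10 carriers, 19 windows in all, and none was given for SLC7A2, which was therefore not searched. The ATF4 core was found in 5 of the 19 windows, of SLC3A2, SLC1A5, SLC7A1, SLC38A1 and SLC1A4, and the E-box in 4, of SLC7A5, SLC1A5, SLC7A8 and SLC36A1. Only for SLC7A1 and SLC7A5 did the window with a match span the annotated start of the gene. The other matches were in windows of starts inside the annotated gene. For SLC1A5, the window that spans the annotated start, chr19:46788545-46788844, holds neither motif. Of all 35116 windows, 3.62% held TGATGNAA and 7.26% held CACGTG on either strand. These matches describe the letters of the windows only, sequence outside them was not searched, and binding was not measured.

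SLC7A8 (LAT2; chromosome 14, 23125295 to 23183674, minus strand) is another light chain of SLC3A2, with a wider choice of neutral amino acids, and it moved the other way. Its level was 65.2, 65.1 and 58.3 CPM in si-NC and 76.3, 81.6 and 73.7 CPM in si-SRSF11. Each si-SRSF11 library was above each si-NC library, with a log2 fold change of 0.30 (SE 0.060, adjusted p = 0.00081, edgeR). The ratio of SLC7A8 to SLC7A5 counts was 0.0408 ± 0.00333 (SD, n = 3) in si-NC and 0.0570 ± 0.00286 in si-SRSF11, 1.40-fold higher. By contrast, the ratio of SLC7A5 to SLC3A2 counts was 2.00 ± 0.0277 in si-NC and 2.02 ± 0.138 in si-SRSF11, and the groups overlapped. Within si-SRSF11 this ratio ran from 1.88 to 2.15, a wider range than the 1.97 to 2.02 of si-NC.

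SLC3A2 has 6 known light chains, SLC7A5, SLC7A6, SLC7A7, SLC7A8, SLC7A10 and SLC7A11, and their levels per length were added up after the values had been seen, as a description. The sum was 397 ± 8.73 (SD, n = 3) CPM per kilobase in si-NC and 357 ± 7.53 in si-SRSF11. SLC7A5 made up 81.8% ± 0.651 of it in si-NC and 80.0% ± 0.305 in si-SRSF11, so the lower sum was mostly SLC7A5. The sum stood at 2.67 ± 0.0394 times the SLC3A2 level in si-NC and at 2.76 ± 0.193 times in si-SRSF11. Besides SLC7A8, SLC7A6 was called higher (log2 fold change 0.24, adjusted p = 0.042, edgeR), though its groups overlapped. Besides SLC7A5, SLC7A11 was called lower (-0.16, adjusted p = 0.035, edgeR). SLC7A7 did not pass and SLC7A10 was too low to test.

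SLC38A1 (SNAT1) and SLC38A2 (SNAT2) carry glutamine, alanine and other small neutral amino acids into the cell with sodium, and both rose. The genes lie on the minus strand of chromosome 12, at 46183063 to 46270017 and 46358189 to 46372867, with 88171 bases and no whole annotated gene between them. SLC38A1 stood at 343, 343 and 341 CPM in si-NC and at 396, 387 and 363 CPM in si-SRSF11. The groups did not overlap, and the log2 fold change was 0.16 (SE 0.047, adjusted p = 0.016, edgeR). SLC38A2 stood at 438, 442 and 437 CPM in si-NC and at 513, 502 and 487 CPM in si-SRSF11. It too was higher in each si-SRSF11 library, with a log2 fold change of 0.19 (SE 0.044, adjusted p = 0.0030, edgeR). The si-NC libraries were close together for both, with an SD of 1.19 CPM for SLC38A1 and of 2.89 CPM for SLC38A2, and the si-SRSF11 libraries were more spread, with SDs of 16.9 and 13.4 CPM. The call of SLC38A1 was lost when counts were scaled by library size alone (log2 fold change 0.12, adjusted p = 0.057, edgeR), and without si-NC replicate 1, 2 or 3 or si-SRSF11 replicate 2 (adjusted p = 0.064, 0.052, 0.063 and 0.053, edgeR).

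The promoter windows of these neighbours are shown because the genes rose together and differ in the letters searched. The window of SLC38A1 is chr12:46266467-46266766 and that of SLC38A2 is chr12:46372724-46373023, both on the minus strand, with the ATF4 core TGATGNAA in capitals.
SLC38A1: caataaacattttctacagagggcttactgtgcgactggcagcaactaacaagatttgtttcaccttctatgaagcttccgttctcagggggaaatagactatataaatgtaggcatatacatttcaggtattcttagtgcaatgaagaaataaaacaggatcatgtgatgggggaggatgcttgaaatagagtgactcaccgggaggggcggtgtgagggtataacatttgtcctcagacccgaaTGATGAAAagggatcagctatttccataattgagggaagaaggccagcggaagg
SLC38A2: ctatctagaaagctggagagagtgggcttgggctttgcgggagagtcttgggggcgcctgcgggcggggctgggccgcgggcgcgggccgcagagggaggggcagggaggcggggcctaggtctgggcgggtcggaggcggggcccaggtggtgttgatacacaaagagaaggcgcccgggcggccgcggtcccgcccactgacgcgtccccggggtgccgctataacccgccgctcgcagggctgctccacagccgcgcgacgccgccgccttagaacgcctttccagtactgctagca
In SLC38A1 the core begins at position -4 from the start of a transcript that begins inside the annotated gene, and neither TGATGNAA nor CACGTG occurs in the window of SLC38A2. The other RefSeq window of SLC38A1 holds neither. Sequence outside the windows was not searched, so the absence of a match in SLC38A2 covers its window alone.

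SLC1A5 (ASCT2; chromosome 19, 46774883 to 46788594, minus strand) is the exchanger through which many tumour cells take up glutamine, and SLC1A4 (ASCT1; chromosome 2, 64988477 to 65023865, plus strand) is its relative for alanine, serine and cysteine. Neither passed the test. SLC1A5 stood at 610, 584 and 625 CPM in si-NC and at 634, 646 and 679 CPM in si-SRSF11, so each si-SRSF11 library was higher. Its log2 fold change was 0.11 (95% interval 0.01 to 0.20, adjusted p = 0.093, edgeR). Without si-SRSF11 replicate 1 it was 0.12 and the adjusted p 0.0498 (edgeR). SLC1A4 stood at 92.3, 85.9 and 89.1 CPM in si-NC and at 88.2, 86.9 and 81.0 CPM in si-SRSF11. These groups overlapped, and the log2 fold change was -0.06 (95% interval -0.17 to 0.05, adjusted p = 0.43, edgeR). Part of the exon sequence of SLC1A5, which had 8852 to 11066 counts per library, is also annotated to exons on the opposite strand, and the strand setting of the counting is not given in the sources used here.

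SLC7A1 (CAT1) and SLC7A2 (CAT2) carry arginine, lysine and ornithine, the former in most dividing cells and the latter in liver, muscle and activated macrophages. SLC7A2 (chromosome 8, 17497088 to 17570573, plus strand) had the largest change of the 10 carriers. It stood at 34.96, 38.4 and 38.3 CPM in si-NC and at 50.6, 54.9 and 48.7 CPM in si-SRSF11. The groups were well apart, and the level was 1.38-fold higher in si-SRSF11 (log2 fold change 0.47, SE 0.067, adjusted p = 2.3e-05, edgeR). SLC7A1 (chromosome 13, 29509410 to 29595688, minus strand) stood at 745, 745 and 731 CPM in si-NC and at 749, 748 and 659 CPM in si-SRSF11. In si-SRSF11, replicate 3 alone was below the si-NC libraries, and the log2 fold change was -0.04 (95% interval -0.15 to 0.06, adjusted p = 0.57, edgeR). Without that library it was 0.01. SLC7A2 was the minor carrier of the pair, with 0.0503 ± 0.00293 (SD, n = 3) of the SLC7A1 counts in si-NC and 0.0716 ± 0.00349 in si-SRSF11, 1.43-fold higher.

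SLC36A1 (PAT1; chromosome 5, 151437046 to 151492381, plus strand) moves small amino acids with protons and is found at lysosomes, where mTORC1 is switched on. It was the lowest of the 10 per length. Its level was 31.7, 32.0 and 30.6 CPM in si-NC and 29.1, 28.9 and 27.7 CPM in si-SRSF11. Each si-SRSF11 library was lower, but the log2 fold change of -0.14 did not pass (95% interval -0.29 to 0.01, adjusted p = 0.17, edgeR).

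Ratios between carriers within a library do not depend on how libraries are scaled, and 5 were compared by the exact two-sided permutation test, for which 0.10 is the smallest p with 3 libraries against 3. Of the 5, 4 did not overlap between conditions (p = 0.10 each, 0.125 after Benjamini-Hochberg adjustment, exact permutation test). Besides SLC7A8 to SLC7A5 and SLC7A2 to SLC7A1, they were SLC1A4 to SLC1A5 and SLC38A1 to SLC38A2. Of single genes, 38.8% did not overlap, and the share over ratios of other genes was not computed. The ratios are made of the same counts as the single carriers above and are not separate evidence. The ratio of SLC1A4 to SLC1A5 was 0.147 ± 0.00435 (SD, n = 3) in si-NC and 0.131 ± 0.0104 in si-SRSF11. That of SLC38A1 to SLC38A2 was 0.780 ± 0.00447 and 0.762 ± 0.0144, a log2 difference of only -0.03. For SLC7A5 to SLC3A2 the log2 difference was 0.02 (p = 0.80, adjusted 0.80, exact permutation test).

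Beyond the 10, 41 other amino acid carriers were listed, of which 22 were high enough to test and 19 had at most 13 counts in any library. Of the 22, 11 were called (50%, beside 24.6% of all genes), 10 of them higher and 1 lower in si-SRSF11, and their median log2 fold change was 0.17. SLC6A6, the taurine carrier, was at 106 ± 0.965 (SD, n = 3) CPM in si-NC and at 141 ± 7.85 CPM in si-SRSF11 (log2 fold change 0.42, adjusted p = 2.2e-06, edgeR). SLC6A19, the neutral amino acid carrier of gut and kidney brush borders, rose from 15.3 ± 0.721 to 21.8 ± 2.49 CPM (log2 fold change 0.51). SLC36A4, a relative of SLC36A1, rose from 5.10 ± 0.817 to 7.95 ± 0.512 CPM (0.64), and SLC43A2 (LAT4), which lets large neutral amino acids pass down their gradient, rose from 29.05 ± 0.144 to 35.5 ± 2.46 CPM (0.29). The 1 that fell, named after its value was seen, was SLC7A11, the cystine and glutamate exchanger that also pairs with SLC3A2, with 178 ± 8.38 CPM in si-NC and 159 ± 10.9 CPM in si-SRSF11 (log2 fold change -0.16, adjusted p = 0.035, edgeR). SLC7A7, a light chain for cationic and neutral amino acids, was at 203 ± 1.39 and 192 ± 3.52 CPM and did not pass (adjusted p = 0.20, edgeR). Without si-NC replicate 1 or 3, 6 of these carriers were called, beside 17.5% and 18.3% of all genes in those fits, and without si-SRSF11 replicate 2, 7 were called, beside 19.2%.

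Regulators known to act on these carriers were read beside them. ATF4 was at 640 ± 17.0 (SD, n = 3) CPM in si-NC and 683 ± 14.7 CPM in si-SRSF11, higher in each si-SRSF11 library but not called (log2 fold change 0.09, adjusted p = 0.13, edgeR). ATF4 is controlled largely at translation, which counts of RNA do not show. MYC rose from 265 ± 15.3 to 307 ± 11.1 CPM (log2 fold change 0.21, SE 0.050, adjusted p = 0.0035, edgeR). Of 25 genes listed as ATF4 program (the factor and targets other than carriers), 23 were tested and 13 called (56.5%, beside 24.6% of all genes), 11 of them lower, and the median log2 fold change was -0.17. The stress factor DDIT3 (CHOP) fell from 138 ± 1.89 to 98.5 ± 3.04 CPM (log2 fold change -0.49, adjusted p = 1.2e-07, edgeR), and DDIT4 (REDD1), an inhibitor of mTORC1, from 720 ± 22.4 to 548 ± 28.98 CPM (-0.39). ATF3 fell from 67.8 ± 2.83 to 49.3 ± 1.37 CPM (-0.46) and asparagine synthetase, ASNS, from 24.3 ± 2.35 to 16.5 ± 0.252 CPM (-0.56). SHMT2, the mitochondrial serine enzyme, was at 672 ± 19.3 and 653 ± 19.5 CPM and did not pass (adjusted p = 0.54, edgeR). Only 2 rose, named after their values were seen: CHAC1, which breaks down glutathione (log2 fold change 0.22), and GPT2, the mitochondrial alanine aminotransferase (0.26).

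Of 36 genes through which mTORC1 senses amino acids, 36 were tested and 4 were called (11.1%, beside 24.6% of all genes), 2 in each direction, with a median log2 fold change of 0.00066. FLCN, which acts on the Rag GTPases, fell from 34.0 ± 0.518 to 26.7 ± 1.17 CPM (log2 fold change -0.35, adjusted p = 0.0010, edgeR). LAMTOR2, of the Ragulator complex, and NPRL3, of the GATOR1 complex, rose by log2 fold changes of 0.20 and 0.14. MLST8, an mTORC1 subunit, was at 153 ± 2.32 and 141 ± 5.00 CPM and did not pass (adjusted p = 0.082, edgeR). Without si-NC replicate 1 or 2, 2 of the 36 were called, beside 17.5% and 19.3% of all genes in those fits.

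Among 28 genes that use or make the amino acids these carriers move, 24 were tested and 14 called (58.3%, beside 24.6% of all genes), 7 in each direction, with a median log2 fold change of 0.06. GOT1, the cytosolic aspartate aminotransferase, fell from 181 ± 4.18 to 123 ± 3.73 CPM (log2 fold change -0.56, adjusted p = 2e-08, edgeR), and GFPT1, which uses glutamine to make glucosamine phosphate, from 393 ± 20.7 to 301 ± 8.69 CPM (-0.39). CAD, an enzyme of pyrimidine synthesis, rose from 150 ± 5.67 to 205 ± 8.42 CPM (log2 fold change 0.45) and PFAS, of purine synthesis, rose from 68.5 ± 2.77 to 89.7 ± 2.30 CPM (0.39). GOT2, the mitochondrial partner of GOT1, was at 294 ± 5.81 and 306 ± 11.1 CPM and did not pass (adjusted p = 0.41, edgeR).

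**Figure D2:**
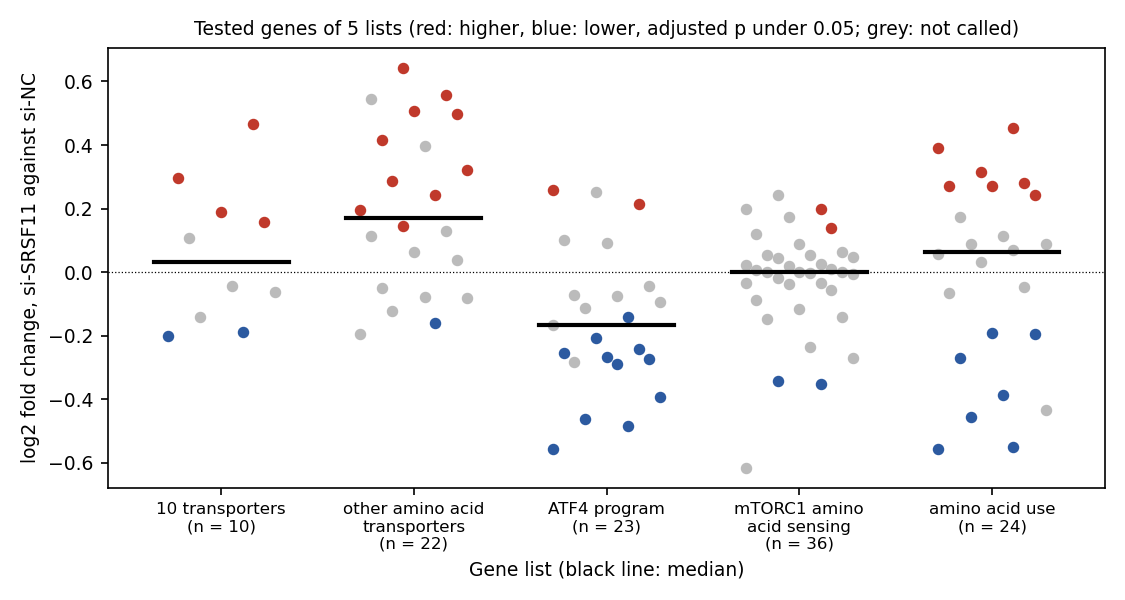
Log2 fold changes in si-SRSF11 against si-NC for the tested genes of each list, 1 point a gene, red where higher and blue where lower at an adjusted p under 0.05, grey where not called, and a black line at the median. The medians are 0.03 for the 10 carriers, 0.17 for the other carriers, -0.17 for the ATF4 program, 0.00066 for mTORC1 sensing and 0.06 for amino acid use.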

How the data were processed

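The authors sequenced polyadenylated RNA of 6 LoVo libraries as 150 bp paired-end reads and deposited raw counts per gene with gene lengths, on hg38 per the submitters' processing notes. The aligner, the counter and its strand setting are not given in the sources used here. Coordinates and lengths of the 10 carriers equal those of GENCODE 29. The members and gene lists were chosen with earlier results of these data known.

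From the deposited counts, 15801 genes reached 10 counts in 3 or more libraries. Their TMM-scaled counts were fitted with glmQLFit and glmQLFTest of edgeR (version 4.0.16, under R version 4.3.3) on condition alone, with Benjamini-Hochberg adjustment over all of them. Calls were made at an adjusted p under 0.05. Standard errors came from the quasi-likelihood F statistic. Ratios were compared by exact permutation with scipy (version 1.17.1). The fit was tested on simulated data. Alternatives were DESeq2 (version 1.42.0), other scalings and filters, protein-coding genes only, a replicate block, and fits without 1 of the 6 libraries.

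The genes named are the 10 carriers, SRSF11, ATF4 and MYC, and of each other list at most 4 called genes with the smallest adjusted p and at most 1 not called, that with the highest mean. Genes that overlap or resemble a carrier, and markers, are named besides, SLC7A6, SLC7A10, SLC7A11, CHAC1 and GPT2 were named after their values were seen, and some genes that the rule or these checks would name are not reported here. Depth per library was 14369525 to 16685719 counts.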

Additional observations from a re-analysis of the deposited data

How the results depend on the processing

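Between 5 and 7 of the 10 carriers were called over 13 alternatives, 3 to 5 of them higher and 2 lower in each. The share of all genes called in these fits was 11.7% (no filter on low counts) to 31.1% (at least 50 counts in at least 3 libraries). Leaving out each library in turn gave 6 to 9 called genes among the other carriers and 2 to 5 among the mTORC1 sensing genes, beside 17.5% to 24.9% of all genes. The log2 fold change of SLC7A1 ran from -0.079 to 0.011, turning positive without si-SRSF11 replicate 3, and the log2 difference of SLC7A5 to SLC3A2 from -0.032 to 0.067, negative without si-SRSF11 replicate 1. The cause was not tested. Scaling by library size gave 1585 genes higher and 2289 lower, against 2081 and 1805 with TMM. DESeq2 called 3072 genes against 3886. Same-numbered libraries deviated together with correlations of 0.015, 0.036 and 0.040, and each of the 6 correlated best with its own number across conditions. The study speaks of 3 pairs of RNA samples without saying how they were paired. Whether the numbers mark pairs was not tested, and the main fit used condition alone. A replicate block called 4036 genes and, of the 10 carriers, 6, with 4 higher and 2 lower. Low counts limit SLC36A1 and SLC7A2, which had 451 to 892 counts per library.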
